A study of Danio rerio with 6 samples.

Results

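Zebrafish carry a pair of genes, csf1ra and csf1rb, for the receptor of colony-stimulating factor 1, and the comparison described here asks what differs in brain macrophages when a csf1rb copy is mutant in fish that are already homozygous for mutant csf1ra. Csf1ra-/- fish were set against csf1ra-/-;b+/- fish, which have the same csf1ra genotype plus 1 mutant and 1 wild-type csf1rb copy, and which are called compound mutants from here on. Each genotype has 2 libraries, so 4 of the 6 libraries of the series were compared. They were chosen by the genotype that heads their columns in the deposited gene table, and every gene of that table was eligible. The other 2 libraries, from wild-type control fish, are given beside them as a reference and add to the estimate of the spread.

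All fish were 9 to 12 months old, of the strain TLF x AB, and carried the mpeg1-GFP line, in which a macrophage promoter drives the green fluorescent protein. Cells of dissociated brains were enriched on a density gradient and sorted for GFP, and the labels call them microglia, although the reporter marks macrophages in general. The labels do not name the mutant alleles, so an RNA level is no check of a genotype. A description field names both receptors as lost in the compound mutants, and the genotype field, which gives a heterozygous csf1rb, was followed. Whether replicate libraries come from different fish or different pools is not in the labels, and p-values here thus measure only how far these samples spread, which may be technical.

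The receptor is a tyrosine kinase of the macrophage surface. Its ligands, colony-stimulating factor 1 and interleukin 34, support the survival, division and differentiation of microglia, and mammals without the receptor have almost no microglia. In zebrafish the receptor was duplicated. The csf1ra gene is also known for its part in yellow pigment cells, while csf1rb is known for its part in blood cell formation and in microglia.

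Values below are signal, the number of reads of a gene per 1000000 of the library size to which the authors scaled. Differences were tested with limma on log2 of signal plus 1 with all 6 libraries fitted, and they are on that scale, which understates the change of weakly expressed genes. The csf1ra-/- libraries held 8028386 and 7874979 reads over the 21860 genes and the compound mutant libraries 15011963 and 13543998. In spite of that depth, fewer genes had a read in the compound mutants (18383 and 18047) than in csf1ra-/- (20971 and 20119). Genes detected in both libraries of a genotype numbered 16411 in compound mutants and 19480 in csf1ra-/-, while 1182 against 811 had a signal of at least 100 in both. The deposited table holds only genes with at least 1 read per 1000000 reads in 2 or more libraries. That limit takes more reads in deeper libraries and can shape the counts of detected genes. Across genes, Spearman's correlation was 0.827 between the compound mutant replicates and 0.731 between the csf1ra-/- replicates, and it lay between 0.697 and 0.747 for pairs of the 2 genotypes. In such a value genes are not independent replicates.

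Macrophage genes were strongly expressed in all 4 mutant libraries. The gene mpeg1.1, for a pore-forming protein of macrophages, stood at 644 and 618 in csf1ra-/- and at 1807 and 3757 in compound mutants. Cells were sorted on the mpeg1-GFP reporter, so neither its level nor its difference is independent of the sort. The invariant chain gene cd74a serves class II antigen presentation and was named after its values were seen. It was at 17930 and 15910 in csf1ra-/- and at 28190 and 35940 in compound mutants, with controls at 14410 and 28760. Summed signal over the 14 measured neutrophil markers was 447 and 313 in csf1ra-/- against 504 and 589 in compound mutants. For 19 B lymphocyte markers these sums were 1502 and 1797 against 2099 and 2878. Within them xbp1 alone made up 969 and 662 against 1442 and 1901. Markers of other cells, some of which macrophages also express, were thus read in both genotypes, and their part in the differences below was not tested. In such bulk samples, fewer cells of a type and less RNA per cell cannot be told apart.

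The receptor genes came first. In csf1ra-/- libraries csf1rb (ENSDARG00000053624) stood at 1432 and 783, within reach of the 901 and 1356 of the control libraries, and in compound mutants it stood at 329 and 173. Both compound mutant values lay below all 4 other libraries. The means were 1108 ± 459 (SD, n = 2) and 251 ± 111 (SD, n = 2), a log2 difference of -2.14 ± 0.54 (SE). It did not pass over all genes (limma adjusted p = 0.241, unadjusted p = 0.00272), and with 1 library left out it lay between -2.61 and -1.68. On the recovered reads edgeR gave an adjusted p of 0.187 and DESeq2 an adjusted p of 0.00448. In the authors' deposited table the log2 fold change was -2.14 with a false discovery rate of 0.0276.

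The csf1ra gene (ENSDARG00000102986) was far lower than csf1rb in signal, at 42.6 and 24.3 in csf1ra-/- against 18.5 and 7.73 in compound mutants, with controls at 37.7 and 67.9. Signal is not corrected for transcript length, so the order of these genes is one of reads. The groups did not overlap, yet the log2 difference of -1.35 ± 0.69 (SE, n = 2 per group) did not pass (limma adjusted p = 0.436). Among the ligands, il34 was at 2.46 and 9.25 in csf1ra-/- and at 52.8 and 56.4 in compound mutants. Control libraries read 1.904 and 14.8, so both compound mutant libraries were above the other 4. Its log2 difference was 3.22 ± 0.96 (SE, limma adjusted p = 0.275), between 2.44 and 4.01 with 1 library left out. DESeq2 gave an adjusted p of 0.0228, and the authors' deposited table has a false discovery rate of 0.0405. The other measured ligand gene, csf1b, had a signal of at most 1.73 in any library, with 0.117 and 1.73 in csf1ra-/- against 0.486 and 0 in compound mutants, and no difference was detectable at this depth. The ligand gene csf1a was listed too, but no gene of the deposited table was matched to it.

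**Figure D1:**
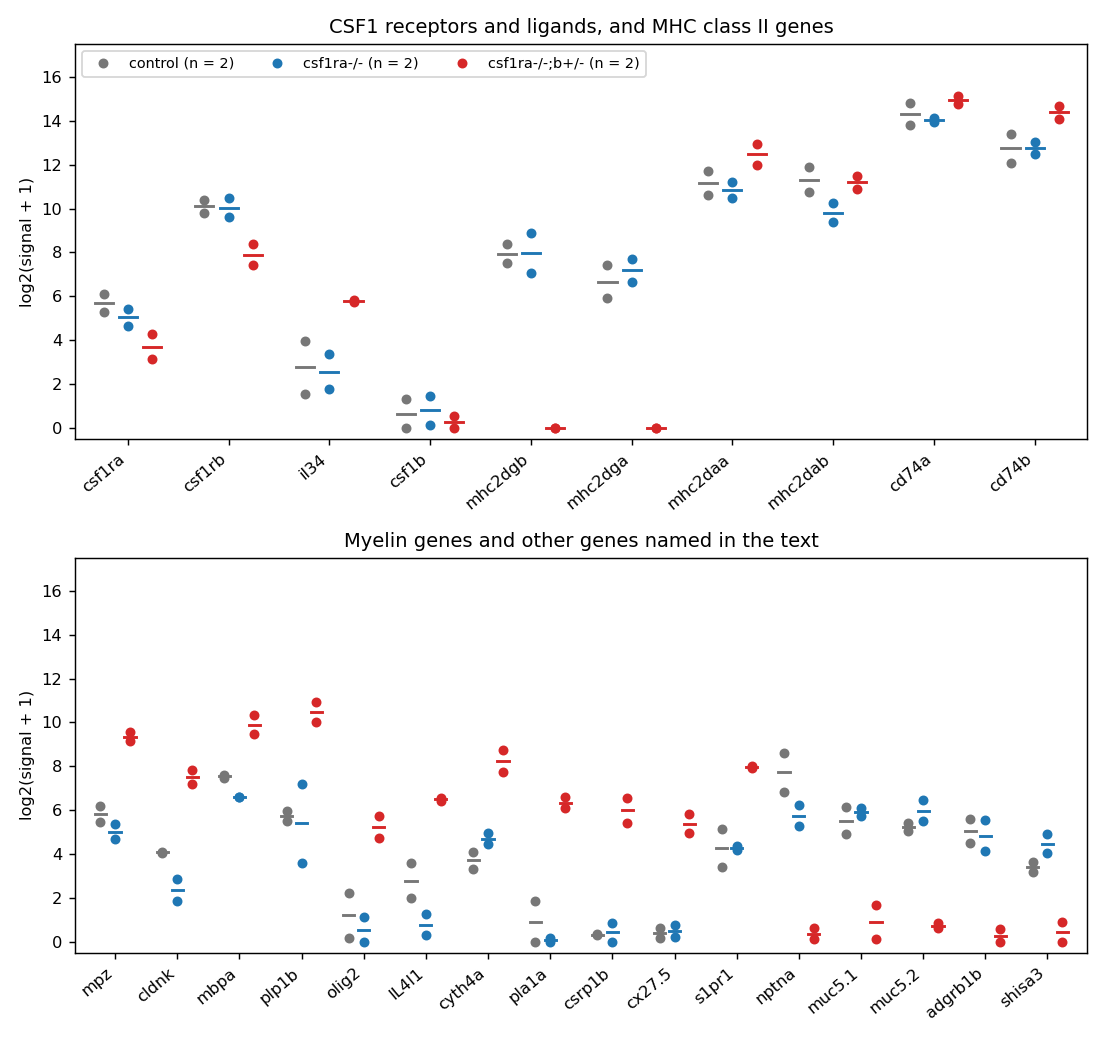
Signal of named genes in each library, on the scale of log2 of signal plus 1. Points are libraries, with 2 per group, and bars are group means. The csf1rb points of the compound mutants lie lowest, the class II genes mhc2dgb and mhc2dga are at 0 in both compound mutant libraries, and mpz, cldnk and mbpa are highest there.

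Across all genes, limma called 2 of 21316 at an adjusted p under 0.05, 0.00938% of the genes tested, both lower in compound mutants, and 0 higher. At an unadjusted p under 0.05 there were 2735 genes, 12.8% of those tested, with 1373 higher (6.44%) and 1362 lower (6.39%). The quasi-likelihood test of edgeR on recovered reads called 18 genes (0.0844%), 9 higher (0.0422%) and 9 lower (0.0422%), and both limma genes were among them. Before adjustment edgeR had 3670 genes under 0.05 (17.2%), 1148 higher (5.39%) and 2522 lower (11.8%). DESeq2 called 1379 of 19663 genes (7.01%), 464 higher (2.36%) and 915 lower (4.65%). At a false discovery rate under 0.05 the authors' deposited table calls 1673 genes (7.65%), of which 435 were higher (1.99%) and 1238 lower (5.66%), and all 18 edgeR genes are among them.

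How many genes pass therefore depends on the test. Scaled to total reads, limma called 39 genes, 24 higher and 15 lower, a setting that moved the median of all genes by -0.13 on the log2 scale. With median-ratio scaling it called 5, 2 higher and 3 lower. Groups of 2 against 2 libraries cannot reach a two-sided exact permutation p below 0.333, so the 10436 genes whose groups did not overlap (49.0%) are a description, with 4273 higher (20.0%) and 6163 lower (28.9%).

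The balance of higher and lower genes differed with the level of a gene. Over all genes tested the median log2 difference was -0.17, and 43.9% of genes were above 0. Of the 9261 genes with a mean log2 signal between 0 and 2, 27.4% were above 0 and the median was -0.63. At a mean log2 signal of 4 or more, a range chosen after seeing the data, the median of 5336 genes was 0.29 and 63.4% were above 0. The mean is over all 6 libraries, so a gene can reach this range through its compound mutant values alone. The authors' deposited table has 950 of its lower calls and 103 of its higher calls in the lowest level range. Each gene list below is read against these backgrounds, since lists of weakly expressed genes sit in the range where most genes were lower. At an unadjusted p under 0.05, 352 of the 3838 genes between 4 and 6 were higher and 95 lower. Among 12620 genes with at least 50 reads in 2 libraries, 3719 were higher and 2404 lower without overlap. The deeper compound mutant libraries reach 50 reads at a lower signal, so this limit admits more genes that are high there. Shares of all genes are thus a low background for higher members of well-expressed lists.

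**Figure D2:**
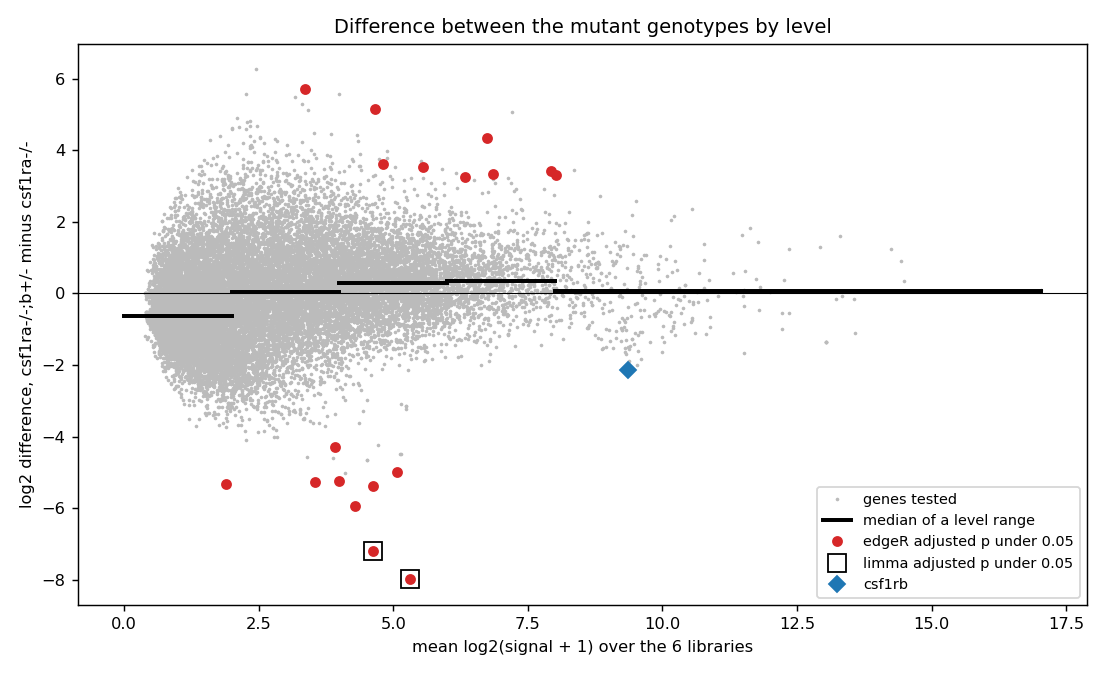
Log2 difference of compound mutants minus csf1ra-/- against the mean of log2 signal plus 1 over the 6 libraries, 1 grey point per gene tested. Black lines give the median in 5 level ranges, from -0.63 in the lowest to 0.35 between 6 and 8, and red points mark the 18 edgeR calls.

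Both genes called by limma encode chains of a class II molecule of the major histocompatibility complex, which presents peptides to helper T lymphocytes. The gene mhc2dgb (ENSDARG00000104635, under a clone name in the deposited table) had a signal of 477 and 134 in csf1ra-/-, from 4079 and 851 reads, and 0 reads in both compound mutant libraries. Controls read 180 and 337, so the gene was at 0 in the compound mutants alone. It was lower by 7.99 ± 0.71 on the log2 scale (SE, n = 2 per group, limma adjusted p = 0.0102, edgeR adjusted p = 0.00143). With the compound mutant group set to a floor of 3 reads in all, it was at least 2360-fold lower.

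Its companion si:busm1-48c11.3 (ENSDARG00000103716, mhc2dga) had 206 and 101 in csf1ra-/-, from 1758 and 646 reads, and again 0 reads in both compound mutant libraries, with controls at 59.0 and 173. It was lower by 7.18 ± 0.73 (SE, limma adjusted p = 0.0189, edgeR adjusted p = 0.00143), and its signal was at least 1190-fold lower. The calls rest on the pooled spread. In the 4 mutant libraries alone both had a limma adjusted p of 0.322. Both were lost without csf1ra-/- replicate 1 (0.385 for each), without csf1ra-/- replicate 2 (0.292 and 0.525), without control replicate 1 (0.309) and without control replicate 2 (0.318). Log2 differences stayed between -8.90 and -7.07 for mhc2dgb and between -7.69 and -6.68 for si:busm1-48c11.3 in these settings.

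Of 7 other class II genes tested, given here after their values were seen, 6 were above 0 and 5 were higher without overlap, while 2 overlapped. Of all genes, 43.9% were above 0 and 20.0% were higher without overlap. At a mean log2 signal of 4 or more, 63.4% of all genes were above 0. The sole one of the 7 below 0, mhc2d8.46a by its current name, had 10 and 0 reads in csf1ra-/- and none in compound mutants. The gene si:busm1-266f07.2 (mhc2daa) stood at 2344 and 1419 in csf1ra-/- and at 4087 and 7846 in compound mutants, a log2 difference of 1.63 ± 0.57 (SE, limma adjusted p = 0.313). For mhc2dab the values were 1218 and 662 against 1906 and 2870 (1.38, limma adjusted p = 0.355). Controls were at 1702 and 3750 for mhc2dab, on either side of its compound mutant values, and at 1557 and 3322 for mhc2daa. The second invariant chain gene cd74b, likewise named after its values were seen, was at 8425 and 5808 in csf1ra-/- against 17270 and 26490 in compound mutants. Its log2 difference was 1.61, with controls at 4289 and 10970. For these 3 genes the mutant groups did not overlap. Class II genes have near-identical copies among which the authors' counting could split or drop reads, so the values of single copies are uncertain. Differences between the fish of the 2 genotypes other than in csf1rb were not tested.

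The class I genes named by their p were higher in both compound mutant libraries. Class I molecules show peptides from inside the cell to cytotoxic T lymphocytes. The gene mhc1zca was at 51.8 and 24.5 in csf1ra-/- and at 240 and 397 in compound mutants (3.08 ± 0.63 SE, limma adjusted p = 0.196). Values of mhc1zea were 73.8 and 41.3 against 303 and 502 (2.80), and those of mhc1uka 17.7 and 14.9 against 126 and 217 (3.27, limma adjusted p = 0.153). In each of these 3 genes both compound mutant libraries were the highest of the 6. Another class I gene, mhc1uba, named after its values were seen, was at 1532 and 2071 in control but at 5.85 and 290 in csf1ra-/- against 31.3 and 51.0 in compound mutants, where the mutant genotypes overlapped. The light chain gene b2m, also named after its values were seen, differed by 0.36 (limma adjusted p = 0.764). Like the class II genes, class I genes have close copies and their single values are uncertain. Of 35 antigen presentation genes tested, 28 were above 0 with a median of 0.89, 12 were higher and 0 lower at an unadjusted p under 0.05, where 6.44% and 6.39% of all genes were. A further count, of 26 higher without overlap, makes 74.3% of the list, against 20.0% of all genes. Of the 35, 27 had a mean log2 signal of 4 or more, where 63.4% of all genes were above 0. The list does not hold the 2 class II genes that limma called.

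Genes of myelin, the sheath that oligodendrocytes wrap around axons, were among the higher edgeR calls. The gene mpz, which encodes a compact-myelin adhesion protein, was at 24.8 and 39.99 in csf1ra-/- and at 573 and 749 in compound mutants. Controls were at 42.7 and 72.0, so both compound mutant libraries stood above the other 4. Its log2 difference of 4.34 ± 0.53 (SE, n = 2 per group) had an adjusted p of 0.0519 by limma and 0.0116 by edgeR. With 1 library left out it lay between 4.00 and 4.67, and the limma adjusted p ran from 0.0373, without compound mutant replicate 1, to 0.525.

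Claudin k, encoded by cldnk, is a tight junction protein of zebrafish myelin. It stood at 6.20 and 2.67 in csf1ra-/- and at 146 and 229 in compound mutants, with controls at 16.2 and 15.6, a log2 difference of 5.16 ± 0.66 (SE, limma adjusted p = 0.0519, edgeR adjusted p = 0.0122). The myelin basic protein gene mbpa was at 94.8 and 96.6 in csf1ra-/- against 718 and 1278 in compound mutants, with 176 and 195 in control. It differed by 3.31 ± 0.49 (SE, limma adjusted p = 0.104, edgeR adjusted p = 0.0404). For all 3 genes, control values lay above the csf1ra-/- values and below those of the compound mutants.

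Further members of the oligodendrocyte list, named after their values were seen, were spread on both sides. Transcripts of plp1b, for the proteolipid of myelin, were at 145 and 11.13 in csf1ra-/- against 1023 and 1928 in compound mutants, a difference of 5.06 that ran from 3.26 to 6.86 with 1 library left out. The lineage transcription factor genes olig2 (1.17 and 0 against 52.2 and 25.6) and sox10 (1.29 and 0.157 against 16.4 and 9.94) were likewise higher in both compound mutant libraries. So were gpr37a, for a receptor of myelinating cells in mammals (9.82 and 38.58 against 105 and 165), and the claudin gene cldn19 (7.72 and 4.23 against 40.5 and 42.5). By contrast cnp, for a myelin phosphodiesterase, was at 94.9 and 229 in csf1ra-/- against 60.5 and 87.6 in compound mutants. The myelin regulatory factor gene myrf read 5.50 and 3.14 against 0.486 and 1.11.

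Of the 23 oligodendrocyte markers tested, 13 were above 0, with a median log2 difference of 0.59. That median ran from 0.30 to 2.56 in the other settings. Over the 8 markers at a mean log2 signal of 4 or more it was 3.00. The compound mutant libraries enter that mean, and cldnk reached 4 only through them. Over the 23, p-values were under 0.05 before adjustment for 9 higher and 0 lower genes, where 6.44% and 6.39% of all genes were. From the list edgeR called 3 higher, against 0.0422% of all genes. The authors' deposited table calls 6 higher and 0 lower, beside 1.99% and 5.66% of all genes. Groups did not overlap for 11 higher genes, 47.8% of the list against 20.0% of all genes, and for 6 lower genes, where 28.9% of all genes were lower without overlap. Summed over the list, signal was 591 and 700 in csf1ra-/- against 3032 and 4814 in compound mutants, and 467 and 628 in control. No marker of the list was at 0 reads in all 4 mutant libraries. The part of oligodendrocyte RNA in the other differences was not tested.

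Radial glia line the ventricles of the adult fish brain and act as its astroglia. A list of markers of these cells and of ependyma, which also holds ependymin genes, was higher in sum as well. Ependymins are secreted proteins of the fish brain, and their gene epd was at 3460 and 644 in csf1ra-/- against 9922 and 5794 in compound mutants, while the related epdl1 was at 524 and 425 against 1266 and 1914 (1.72 ± 0.48 SE, limma adjusted p = 0.265). The glutamine synthetase gene glulb was at 31.1 and 31.4 in csf1ra-/- against 287 and 315 in compound mutants, with controls at 3.54 and 8.65 (3.23 ± 0.59 SE, limma adjusted p = 0.121). Replicates of glulb lay close together in both genotypes. The transcription factor gene her9 read 6.20 and 5.49 against 41.6 and 40.5. Another list member, s1pr1, encodes a receptor for sphingosine 1-phosphate and stood at 19.8 and 17.4 against 243 and 261 (3.69, limma adjusted p = 0.116). The astroglial filament gene gfap was not higher, with 4.79 and 8.31 in csf1ra-/- against 0.162 and 5.25 in compound mutants. Here epd, her9 and gfap were named after their values were seen.

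Over the 39 markers of that list tested, 28 were above 0 and the median was 0.47. At an unadjusted p under 0.05 there were 6 higher and 0 lower, where 6.44% and 6.39% of all genes were. Summed signal was 5259 and 2191 in csf1ra-/- against 13900 and 10070 in compound mutants, and 1151 and 4060 in control. Most of the sum was epd alone in both compound mutant libraries (9922 and 5794) and in csf1ra-/- replicate 1 (3460). These sums thus largely follow 1 gene.

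**Figure D3:**
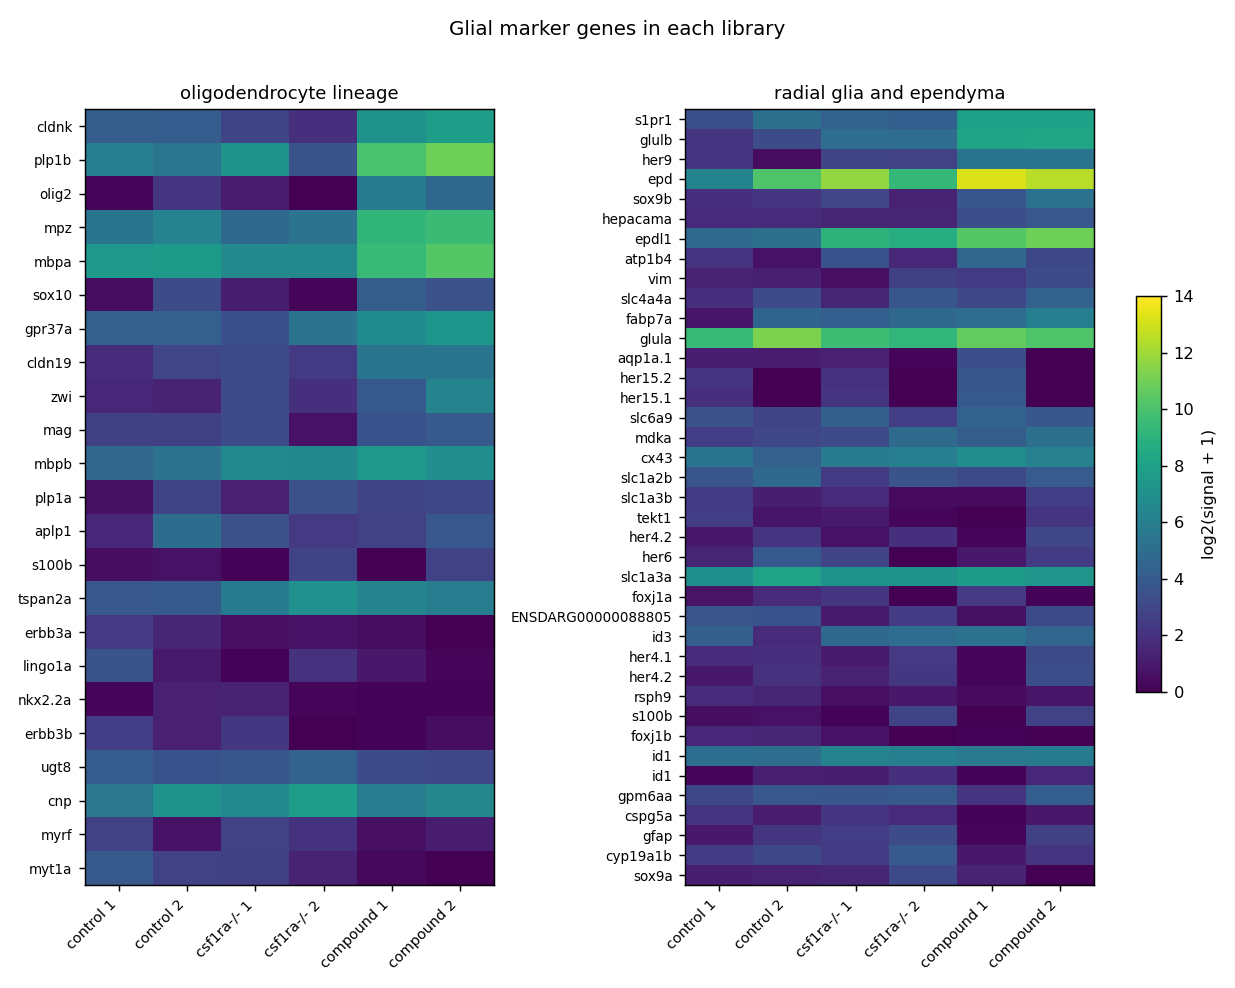
Signal of oligodendrocyte markers (left, 23 genes) and radial glia and ependymal markers (right, 39 genes) in each library, coloured by log2 of signal plus 1, with genes ordered by the difference between the mutant genotypes. In the upper rows both compound mutant columns are brighter than the other 4, and in the lower rows they are not.

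Several other genes with an ordinary symbol stood far apart. Upward, IL4I1, which encodes an L-amino acid oxidase secreted by immune cells, was at 0.234 and 1.41 in csf1ra-/- and at 85.7 and 93.2 in compound mutants, with controls at 2.99 and 11.0. Its difference was 5.71 ± 0.85 (SE, limma adjusted p = 0.104, edgeR adjusted p = 0.0410). The gene cyth4a, for a cytohesin that activates ARF small GTPases, was at 30.2 and 20.9 against 210 and 428 (3.53 ± 0.61 SE, limma adjusted p = 0.111, edgeR adjusted p = 0.0488). These 2 genes and the 3 myelin genes above are the only higher edgeR calls whose symbol is not a clone name.

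Genes next in the order of p did not pass edgeR either. Among them pla1a, for a phospholipase acting on phosphatidylserine, was at 0.117 and 0 in csf1ra-/- against 66.8 and 94.9 in compound mutants (6.25, limma adjusted p = 0.101). The LIM domain protein gene csrp1b read 0.819 and 0 against 42.3 and 94.6, and the connexin gene cx27.5 read 0.702 and 0.157 against 30.6 and 55.0. No read of mllt11 was found in csf1ra-/-, while 378 and 265 reads were found in compound mutants, at least 137-fold more signal against the floor of 3 reads. All of these were near or at 0 in both csf1ra-/- libraries, and the controls were also below 7 in each.

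Downward, nptna, which encodes the adhesion molecule neuroplastin, was at 37.4 and 75.1 in csf1ra-/- against 0.0809 and 0.553 in compound mutants, with controls at 114 and 386. It differed by -5.38 ± 0.76 (SE, limma adjusted p = 0.101, edgeR adjusted p = 0.0116). The mucin gene muc5.2 was at 44.6 and 86.4 against 0.809 and 0.553 (-5.24 ± 0.72 SE, limma adjusted p = 0.0801, edgeR adjusted p = 0.0122), and the related muc5.1 was at 67.6 and 51.6 against 0.0809 and 2.21. Controls had 42.2 and 31.7 for muc5.2, so these gel-forming mucins of epithelia were near 0 in the compound mutants alone. Without compound mutant replicate 1 the limma adjusted p was 0.0373 for nptna and muc5.2. Without compound mutant replicate 2 it was 0.0254 for nptna and muc5.1, and without each of the other libraries no call was made.

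The engulfment receptor gene adgrb1b was at 16.5 and 46.1 in csf1ra-/- and at 0.486 and 0 in compound mutants (-4.56, limma adjusted p = 0.138). Its receptor binds phosphatidylserine of dying cells in mammals. The gene shisa3 read 15.4 and 29.3 against 0.890 and 0. All 12 tested genes of the U2 spliceosomal RNA were lower without overlap, where 28.9% of all genes were. They lay between -4.99 and -1.23 on the log2 scale. Their copies share reads and are not independent. Of them edgeR called 1 lower, beside 0.0422% of all genes, at 107 and 117 against 3.40 and 1.84 (edgeR adjusted p = 0.0410). Without compound mutant replicate 1 that copy had a limma adjusted p of 0.0373.

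Of the 18 edgeR genes, 10 carry a clone name or no symbol. They include BX957297.1, listed as cd59a in the current name table and so a gene for an inhibitor of complement, at 144 and 171 in csf1ra-/- against 1250 and 2244 in compound mutants (3.41 ± 0.53 SE, edgeR adjusted p = 0.0421). The clone-named si:dkey-10h3.1 was at 66.9 and 40.9 against 432 and 656. On the lower side CABZ01113061.1 was at 41.9 and 103 against 0 and 0.184 (limma adjusted p = 0.0519, edgeR adjusted p = 0.00477), and its limma adjusted p was 0.0179 without compound mutant replicate 1 and 0.0125 without replicate 2. The gene si:dkey-74h17.4 was at 66.2 and 22.7 in csf1ra-/- but had 2 reads in each control library and 0 in compound mutants. These were named after their values were seen, except for si:dkey-74h17.4.

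Macrophage genes were next examined by group, with the cell's own identity genes first. Of 40 tested, 25 were above 0 (median 0.38), 8 were higher and 0 lower at an unadjusted p under 0.05, and 17 were higher without overlap. These 17 are 42.5% of the list, against 20.0% of all genes. At an unadjusted p under 0.05 the share of all genes was 6.44% higher and 6.39% lower. Of the 40, 34 had a mean log2 signal of 4 or more, where 63.4% of all genes were above 0. Shares of all genes are thus a low background for the higher members. The lectin-like receptor gene siglec15l was at 196 and 184 in csf1ra-/- against 1219 and 3482 in compound mutants (3.44 ± 0.71 SE, limma adjusted p = 0.196). Tetraspanin gene cd9b read 13.5 and 0.157 against 164 and 232, and mpeg1.1 differed by 2.04 ± 0.52 (SE, limma adjusted p = 0.241). Also higher than csf1ra-/- without overlap were lcp1, for the actin bundler plastin (301 and 580 against 1964 and 1830), and apoeb, for apolipoprotein E (3438 and 2622 against 7934 and 6244). Both were named after their values were seen. Controls were at 4128 and 11450 for apoeb, on either side of its compound mutant values, and at 268 and 624 for lcp1.

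Other identity genes, named after their values were seen, were lower or overlapped. Apolipoprotein gene apoc1 was at 6791 and 3381 in csf1ra-/- against 2850 and 1995 in compound mutants (-1.01, limma adjusted p = 0.473). The purinergic receptor gene p2ry12, a marker of resting microglia in mammals, read 36.0 and 23.8 against 10.3 and 18.2 (-1.04). The complement genes c1qa, c1qb and c1qc differed by 0.08, -0.32 and 0.08, and their groups overlapped. For example c1qc was at 639 and 443 against 493 and 643. The list of C1q and engulfment receptor genes that holds them had a median of -0.88 over 29, and of 0.08 over the 6 at a mean log2 signal of 4 or more.

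Transcription factors of the myeloid lineage had a median of 0.29, with 16 of 26 above 0. Of the 26 tested, 17 had a mean log2 signal of 4 or more, where 63.4% of all genes were above 0. Of the 26, 2 were higher and 1 lower at an unadjusted p under 0.05, beside 6.44% and 6.39% of all genes. The pair for PU.1, the master regulator of macrophages, comprised spi1b at 502 and 517 against 1194 and 1229 and spi1a at 435 and 249 against 871 and 778. Log2 differences were 1.25 and 1.32, and the limma adjusted p was 0.359 and 0.367. Replicates of spi1b lay close to each other in both genotypes.

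Downstream of the receptor, 36 signalling genes had a median of 0.08, with 18 above 0. Among them 5 were higher and 3 lower at an unadjusted p under 0.05, beside 6.44% and 6.39% of all genes. The phosphatase gene ptpn6, for SHP-1, which restrains receptor signals, was at 268 and 264 in csf1ra-/- against 701 and 1013 in compound mutants (1.66). The Src family kinase gene fynb read 4.33 and 4.86 against 0 in both compound mutant libraries.

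Lysosomal genes, whose products digest engulfed material, were above 0 in 40 of 46, with a median of 0.88. There 11 were higher and 1 lower at an unadjusted p under 0.05, beside 6.44% and 6.39% of all genes. Without overlap 27 were higher, 58.7% of the list against 20.0% of all genes. Of the 46, 38 had a mean log2 signal of 4 or more, where 63.4% of all genes were above 0. Peptidase gene tpp1 was at 21.8 and 17.4 in csf1ra-/- against 77.4 and 107 in compound mutants (2.17 ± 0.56 SE, limma adjusted p = 0.2498). The granulin genes grn1 (152 and 107 against 373 and 659) and grn2 (30.6 and 19.3 against 90.2 and 164) and the cathepsin gene ctss2.1 (166 and 171 against 468 and 664) had the same order. In each of them both compound mutant libraries lay above both csf1ra-/- libraries, and ctss2.1 was named after its values were seen.

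The proton pump of the lysosome, the V-ATPase, was above 0 in 20 of 26 subunit genes (median 0.56). Of the 26 tested, 19 had a mean log2 signal of 4 or more, where 63.4% of all genes were above 0. Of the 26, 3 were higher and 0 lower at an unadjusted p under 0.05, beside 6.44% and 6.39% of all genes. The subunit gene tcirg1b stood at 185 and 253 against 590 and 620, and atp6v1h at 49.7 and 83.9 against 170 and 180. Proteasome genes were above 0 in 30 of 35 (median 0.91), 8 higher and 1 lower. Of the 35 tested, 27 had a mean log2 signal of 4 or more. The base subunit gene psmc1a was at 0.702 and 3.61 in csf1ra-/- against 57.5 and 66.6 in compound mutants, with controls at 10.3 and 5.80 (4.49 ± 0.81 SE, limma adjusted p = 0.120). Both psmd12 and psmc2, for parts of the regulatory particle, were likewise higher without overlap.

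Integrins and the leukocyte cytoskeleton were above 0 in 37 of 55 genes (median 0.66). Of the 55 tested, 40 had a mean log2 signal of 4 or more, where 63.4% of all genes were above 0. Of the 55, 12 were higher and 1 lower at an unadjusted p under 0.05, beside 6.44% and 6.39% of all genes. The focal adhesion gene pxna was at 26.0 and 25.6 against 112 and 292 (2.77), and arpc1b, for an actin-nucleating Arp2/3 subunit, at 428 and 436 against 1971 and 3374 (2.58 ± 0.61 SE, limma adjusted p = 0.235). Hyaluronan receptor gene cd44b read 3.86 and 4.86 against 42.4 and 50.6. The csf1ra-/- replicates of pxna and arpc1b nearly coincided.

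Inflammatory mediators were above 0 in 40 of 57 genes (median 0.52). Of the 57 tested, 33 had a mean log2 signal of 4 or more, where 63.4% of all genes were above 0. Of the 57, 14 were higher and 1 lower at an unadjusted p under 0.05, beside 6.44% and 6.39% of all genes. The gene irak3, for a kinase-like brake on toll-like receptor signals, was at 42.7 and 53.5 in csf1ra-/- against 193 and 290 in compound mutants (2.28 ± 0.52 SE, limma adjusted p = 0.215). The cytokine subunit gene il12ba was at 1.64 and 10.2 against 28.0 and 172, a difference of 3.71 that ran from 2.42 to 4.99 with 1 library left out. Chemokine genes were above 0 in 24 of 44 (median 0.60), 8 higher and 1 lower. Among them ccl19a.1 read 921 and 1219 against 2836 and 7791, and the receptor gene ccr9a 78.5 and 39.05 against 450 and 170.

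Interferon response genes were above 0 in 34 of 46 (median 0.57). Of the 46, 10 were higher and 1 lower at an unadjusted p under 0.05, beside 6.44% and 6.39% of all genes. The signal transducer gene stat1b was at 108 and 78.9 against 259 and 471 (1.91), whereas the kinase gene jak2a was at 28.9 and 31.4 against 7.85 and 2.85 (-2.41 ± 0.73 SE, limma adjusted p = 0.275). Of survival and growth factor genes, 20 of 37 were above 0 (median 0.03), 8 higher and 3 lower. The median ran from -0.16 to 1.28 in the other settings, and 10 of the 15 members at a mean log2 signal of 4 or more were above 0, where 63.4% of all genes in that range were. The Bcl-2 family genes mcl1b, which protects from cell death (87.6 and 89.7 against 440 and 415), and bida, which promotes it (41.6 and 72.6 against 266 and 226), were both higher without overlap.

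Limma called no member of any of the 36 lists, so these groups are described by counts and medians alone. Their medians can be set beside that of well-expressed genes. At a mean log2 signal of 4 or more, where the median of all genes was 0.29, the median was 0.92 for 38 lysosomal genes, 0.97 for 27 antigen presentation genes, 0.90 for 27 proteasome genes and 0.93 for 40 integrin and cytoskeleton genes. It was 0.35 for 34 identity genes and 0.18 for 24 signalling genes. The level includes the compound mutant libraries, and mhc1uka, for example, reached it only through them. These medians are thus no independent support for a difference.

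**Figure D4:**
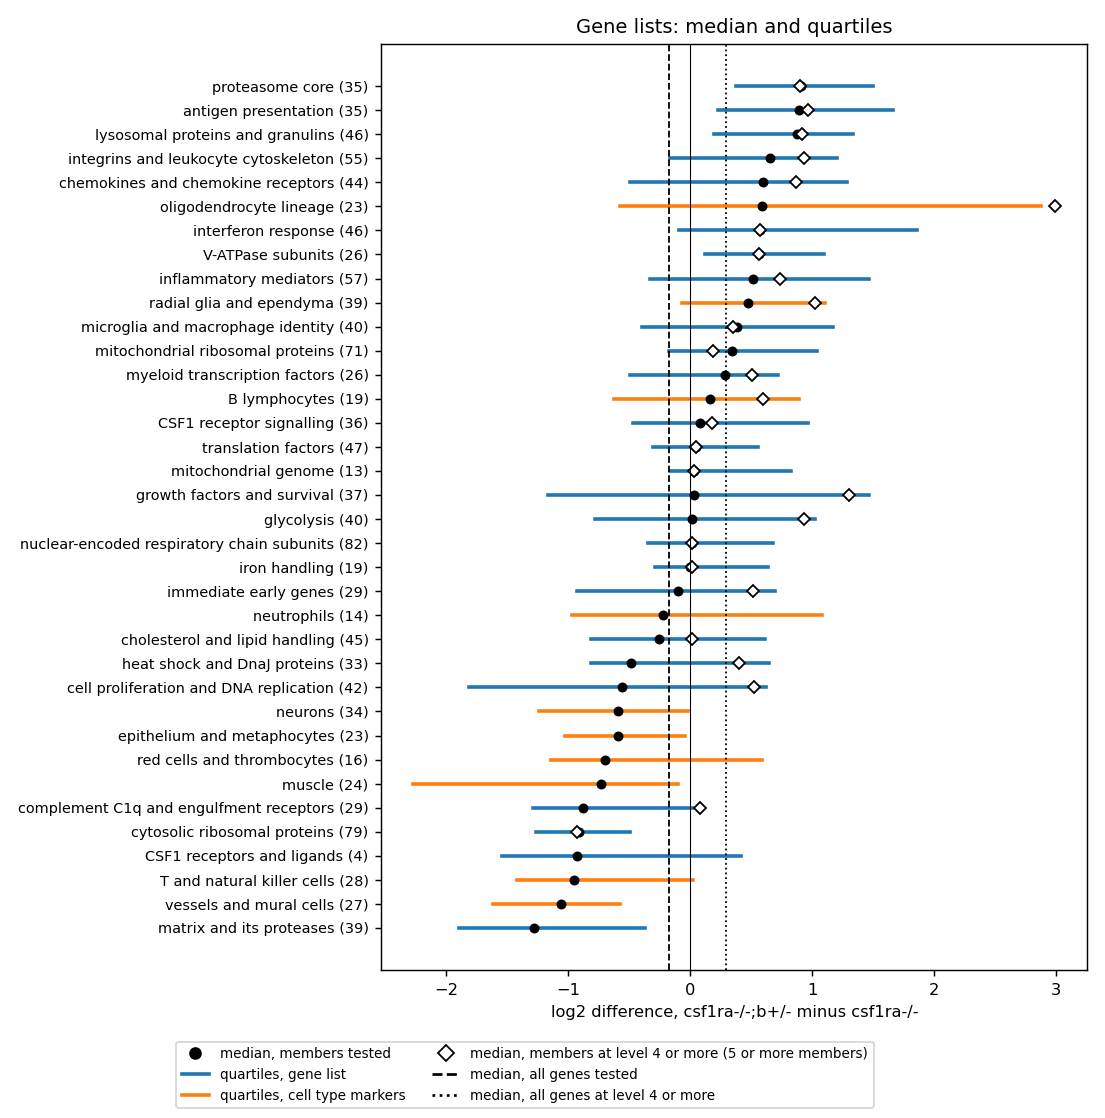
Median (black points) and quartiles (lines) of the log2 difference of compound mutants minus csf1ra-/- for the 36 gene and marker lists, with the number tested in brackets. White diamonds give the median of members at a mean log2 signal of 4 or more. Lysosomal, proteasome and antigen presentation genes lie right of both background lines, and cytosolic ribosomal proteins at -0.91 lie left of them.

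Genes for the proteins of the cytosolic ribosome, which makes all other proteins of the cell, lay on the lower side. Of 79 tested, 6 were above 0, 7.59%, with a median of -0.91. At an unadjusted p under 0.05 there were 22 lower and 0 higher, beside 6.39% and 6.44% of all genes. Groups did not overlap for 52 that were lower, where 28.9% of all genes were. The gene rps29 was at 1379 and 1952 in csf1ra-/- against 563 and 379 in compound mutants, with controls at 463 and 821 (-1.83 ± 0.51 SE, limma adjusted p = 0.265). Its fellow rpl38 read 1118 and 1749 against 461 and 307, and rpl22l1 140 and 284 against 36.3 and 66.7 (-1.999). Not all members did so, and rpl3, named after its values were seen, overlapped at 1633 and 4224 against 2661 and 2787.

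The csf1ra-/- libraries themselves differed in these genes. Summed ribosomal protein signal was 82120 in csf1ra-/- replicate 1 and 161900 in replicate 2, 70150 and 71800 in compound mutants, and 31400 and 70860 in control. The median difference lay between -1.37 and -0.45 with 1 library left out, and between -1.10 and -0.91 in the other settings. The authors' deposited table calls 3 of the genes lower and 0 higher, beside 5.66% and 1.99% of all genes.

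**Figure D5:**
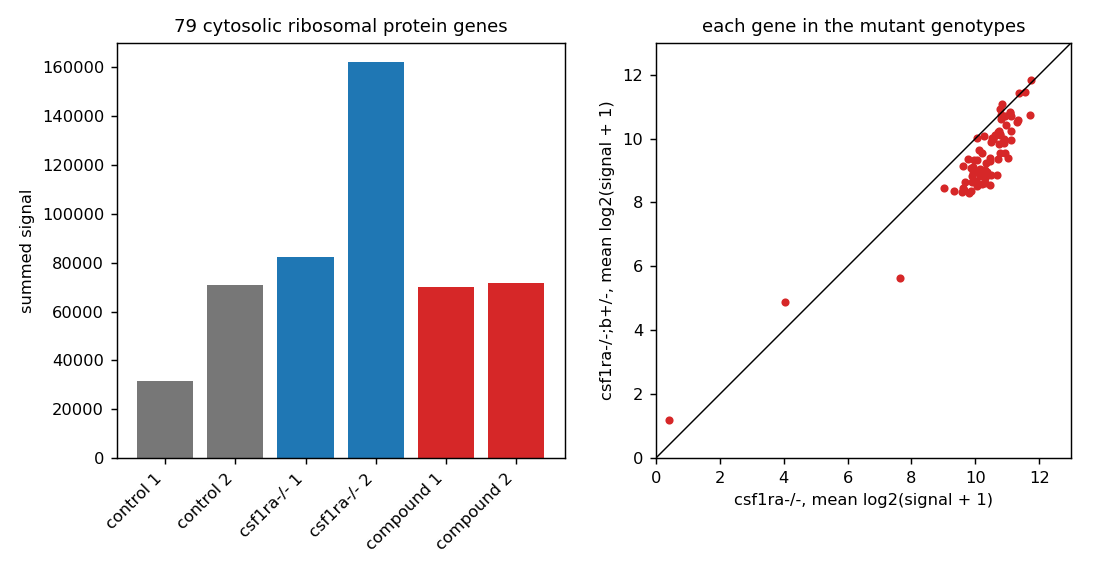
Left, summed signal of 79 cytosolic ribosomal protein genes in each library, with bars from 0. Right, 1 point per gene with the mean log2 signal plus 1 in csf1ra-/- on the horizontal and in compound mutants on the vertical axis, and the line of equality. Most points lie under the line, and csf1ra-/- replicate 2 has the highest bar at 161900.

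Other genes of protein and energy production had medians near or above 0. Mitochondrial ribosomal proteins were above 0 in 48 of 71 (median 0.34). Of the 71, 4 were higher and 0 lower at an unadjusted p under 0.05, beside 6.44% and 6.39% of all genes. The gene mrps35 was at 2.46 and 0.627 in csf1ra-/- against 24.2 and 48.8 in compound mutants (3.90). Translation factors had a median of 0.05 over 47 genes and nuclear respiratory chain subunits a median of 0.02 over 82.

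The 13 genes of the mitochondrial genome had a median of 0.04, with mt-co1 at 7988 and 6025 against 17130 and 16670 and mt-nd3 at 404 and 426 against 176 and 163. Glycolysis genes had a median of 0.02 over 40 genes but of 0.94 over the 17 at a mean log2 signal of 4 or more, such as eno1a for enolase (74.95 and 113 against 328 and 513). Iron handling had a median of 0.00 over 19 genes, cholesterol and lipid handling -0.25 over 45, immediate early genes -0.10 over 29 and heat shock and DnaJ proteins -0.48 over 33. At a mean log2 signal of 4 or more, the last 2 medians were on the other side of 0, at 0.52 over 15 and 0.40 over 9. Single members still stood out, such as the ubiquitin gene ubb (174 and 39.99 against 544 and 687), the sterol sensor gene insig1 (13.5 and 49.7 against 151 and 218) and junba (171 and 162.3 against 679 and 497).

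Cell cycle genes had a median of -0.56 over 42. Among them 2 were higher and 5 lower at an unadjusted p under 0.05, beside 6.44% and 6.39% of all genes. The tubulin regulator gene stmn1b was at 58.1 and 33.25 in csf1ra-/- against 336 and 629 in compound mutants (3.36 ± 0.60 SE, limma adjusted p = 0.120). The mitotic gene cdca8 read 9.71 and 4.55 against 0 and 0.0921, and tyms, for thymidylate synthase, 15.08 and 2.35 against 0 and 0.184. The replication clamp gene pcna, named after its values were seen, was higher without overlap, at 29.2 and 66.7 against 87.2 and 182. Over the 10 cell cycle genes at a mean log2 signal of 4 or more the median was 0.52.

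Markers of cells outside the macrophage and glial lineages were mostly weak, as were matrix genes, and most of these lists had medians below 0. Medians were -0.60 over 34 neuron markers (0 higher and 5 lower at an unadjusted p under 0.05), -1.06 over 27 vessel markers (0 and 3), -0.73 over 24 muscle markers (1 and 8) and -1.28 over 39 matrix genes (1 and 8). At that threshold 6.44% of all genes were higher and 6.39% lower. Of the 9261 genes at a mean log2 signal between 0 and 2, 270 were higher and 718 lower. T and natural killer cell markers had a median of -0.95 over 28, epithelial markers -0.60 over 23 and markers of red cells and thrombocytes -0.70 over 16. Neutrophil markers had -0.22 over 14 and B lymphocyte markers 0.16 over 19. At most 3 members of each of the neuron, vessel, muscle and matrix lists reached a mean log2 signal of 4, and the median of all genes between 0 and 2 was -0.63.

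Named members show the size of these signals. The fast myosin gene myhz2 was at 7.13 and 9.88 in csf1ra-/- against 0.162 and 0.184 in compound mutants (-3.00), and myhz1.1 at 10.6 and 12.9 against 0 and 0.276. The neurogranin gene nrgna read 4.91 and 9.57 against 0 in both compound mutant libraries. The clotting factor gene vwf of vessel cells read 6.90 and 3.61 against 0 and 0.276, and the collagen gene col6a3 18.8 and 12.4 against 2.99 and 1.01. Summed neuron signal was 132 and 259 in csf1ra-/- against 55.1 and 149 in compound mutants, so these sums overlapped, whereas summed muscle signal of 120 and 173 did not overlap with 62.6 and 104.

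Detection itself differed between the genotypes. In 1237 genes both csf1ra-/- libraries had reads and both compound mutant libraries had 0, against 80 genes in the other direction. With at least 50 reads in both libraries of the other genotype, these counts were 10 and 6. Every gene of the deposited table had at least 1 read per 1000000 reads in 2 or more libraries. That limit takes more reads in the deeper compound mutant libraries. A gene at 0 in 1 genotype is in the table only through the other libraries, so the limit can shape these counts. The genes with the most reads in compound mutants and 0 in csf1ra-/- were mllt11, TMBIM1 and cul5b. The last 2 rest on compound mutant replicate 2, with 314 and 309 reads there and 4 and 1 reads in replicate 1.

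Genes beside csf1rb were read as well, in the gene order of the GRCz12tu assembly. Neighbours were the nearest tested genes that matched that order by symbol or synonym, and genes without a match were passed over. The neighbour ankrd46a, for example, had 22 genes between it and csf1rb. Of 20 such neighbours, 10 on each side, 5 were above 0 and the median was -0.57. Many of these neighbours were weakly read. Of all genes at a mean log2 signal between 0 and 2, 27.4% were above 0 and the median was -0.63. A sole neighbour, spry4, had an unadjusted p under 0.05, beside 12.8% of all genes. It encodes an inhibitor of receptor tyrosine kinase signals and read 10.1 and 9.25 in csf1ra-/- against 1.13 and 0 in compound mutants (-2.87 ± 0.95 SE, limma adjusted p = 0.299). Groups did not overlap for 9 neighbours that were lower and 2 that were higher, beside 28.9% and 20.0% of all genes. Around csf1ra, 11 of 20 neighbours were above 0, with a median of 0.25, 4 had an unadjusted p under 0.05, and 4 were higher and 6 lower without overlap. Limma called none beside either receptor.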

How the data were processed

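Per the labels, total RNA of sorted cells was amplified with a low-input cDNA kit and sequenced as single reads of 50 nucleotides. HISAT2, edgeR and the GRCz10 build are named in the submitters' processing notes, and versions and counting settings are not stated there. The deposited signal values, headed CPM in the file, are reads per 1000000 of an effective library size. All were whole multiples of the smallest value of their library within 0.001, so whole reads were recovered. That size was 1.07 and 0.810 times the total reads in csf1ra-/- and 0.823 and 0.802 times in compound mutants. The log2 fold changes and the p-value columns (false discovery rates) of the table are the authors' own, as deposited. Another 15 columns of per-sample values were not used, and weakly read genes are missing from the table as deposited. The series' design text describes other samples.

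The test was limma 3.58.1 in R 4.3.3 (intensity trend, robust, 3 group means, no covariate) on log2 of signal plus a pseudocount of 1, for the 21316 genes that reached a signal of 1 in 2 or more libraries, adjusted by Benjamini and Hochberg. The limma step was also run on simulated counts with known changes placed in well-read genes only, so the recovery of changes in weak genes was not tested. Alternatives on the recovered reads were edgeR 4.0.16 and DESeq2 1.42.0. The others were scaling to total reads or by median ratios, pseudocounts of 0.25 and 4, the 4 mutant libraries only, no filter, a minimum of 50 reads in 2 libraries, no robust estimation, the replicate number as a block, and each library left out. The range of genes at a mean log2 signal of 4 or more was added after seeing the data, and its mean includes the libraries compared. Bounds against groups at 0 reads set that group to 3 reads in all and cover counting error only.

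The comparison and the gene lists were chosen with earlier results of these data known. Genes named were the receptors and ligands, and up to 10 in each direction with the largest difference that passed limma, did not overlap, had a mean of 20 reads and an ordinary symbol, filled up in order of the edgeR and then the limma p. Added to these were up to 3 members of each list with the smallest limma p, up to 3 genes in each direction at 0 reads in a genotype, and neighbours of csf1rb with a p under 0.05. Not all of those genes are printed, and other genes are marked as chosen after their values were seen. Of the genes, 18859 matched a current symbol. From the lists, 6 gene IDs were left out after seeing the data because their current symbol names a product outside the list. Gene order came from the RefSeq annotation of GRCz12tu, with no coordinates used, and no genome sequence was used.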

Additional observations from a re-analysis of the deposited data

How the results depend on the processing

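The number of genes at a limma adjusted p under 0.05, 2 as reported, was 39 when scaled to total reads (24 higher and 15 lower), 5 with median-ratio scaling, 4 with a pseudocount of 4, 48 of 12620 genes with at least 50 reads in 2 libraries, and 5 without robust estimation. It was 3 with a pseudocount of 0.25, 2 with no filter and 0 in the 4 mutant libraries only. On recovered reads it was 18 by edgeR and 1379 by DESeq2. With 1 library left out it lay between 0 and 8, and it was 0 without each csf1ra-/- and each control library. A lone library is then assumed to vary like the other groups. Both reported genes were called in every setting that called any. At an unadjusted p under 0.05 there were 2735 genes as reported, 3670 by edgeR, 4393 by DESeq2 and between 1562 and 3056 with 1 library left out. The share of higher genes among these was 50.2%, 31.3% by edgeR, 61.5% with a pseudocount of 4 and 65.3% with at least 50 reads. Groups that do not overlap numbered 10436, and 6123 with at least 50 reads (3719 higher and 2404 lower), where fewer genes were tested. The limit of 50 reads is met at a lower signal in the deeper compound mutant libraries, which can raise its share of higher genes.

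Over all genes, deviations of same-numbered libraries were hardly correlated (0.006, 0.018 and 0.0122). Effects of either sign can cancel in such a value, so it cannot show whether the numbers pair them. The labels do not say. With the replicate block limma called 34 genes, 20 higher and 14 lower.

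DESeq2 put csf1rb (-2.204, adjusted p = 0.00448) and il34 (3.17, adjusted p = 0.0228) past the threshold, and no other setting here did. Their false discovery rates in the authors' deposited table were 0.0276 and 0.0405. The csf1b difference of -0.52 lay between -1.16 and 0.13 with 1 library left out and was positive without csf1ra-/- replicate 2. Genes reported near 0 changed sign. For rpl3 the value was -0.11 by edgeR, -0.17 by DESeq2, -0.14 on total reads and -0.0074 with median ratios. For c1qa it was -0.026 by DESeq2 and -0.11 on total reads, and for c1qc -0.11 on total reads. With 1 library left out, rpl3 ran from -0.63 to 0.74, c1qa from -0.30 to 0.46, c1qb from -0.94 to 0.30, c1qc from -0.18 to 0.34 and mhc1uba from -2.83 to 2.58. Causes were not tested. Of the 36 list medians, those of lysosomal, V-ATPase, proteasome, antigen presentation, identity, interferon, inflammatory, integrin, chemokine, mitochondrial ribosomal and both glial lists stayed above 0 in every setting. Below 0 in every setting were those of cytosolic ribosomal proteins, T and natural killer cells, epithelium, neurons, vessels, matrix, and CSF1 receptors and ligands. All 8 medians within 0.1 of 0 as reported, and 9 others, changed sign in at least 1 setting. Depth limits weak genes, since 1 read was worth between 0.0809 and 0.157 of signal in the mutant libraries.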
